A study of Mus musculus with 23 samples.

Results

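The genes described here are 32 sarcomere structure and turnover genes of the mouse heart, taken by symbol from 55487 gene identifiers quantified in 23 bulk RNA-seq libraries. All 32 were found and all 32 were among the 15732 genes tested. They comprise 6 thin filament genes, 4 genes of the thick filament and titin, 12 genes of the Z disc and the desmin filaments attached to it, 3 genes of the M band and costamere, and 7 genes of sarcomere protein turnover and assembly. The hearts came from wild-type C57BL/6J females aged 10 weeks. In one arm mice received isoproterenol (ISO), a β-adrenergic agonist, at 300 mg/kg, and hearts were taken at day 1 (n = 3) and at day 7 (n = 4), beside an untreated ISO baseline (n = 4). In the other arm mice received lipopolysaccharide (LPS), the endotoxin of Gram-negative bacteria, at 2.5 mg/kg, and hearts were taken at day 1 (n = 4), at day 7 (n = 4) and from an untreated LPS baseline (n = 4). Baseline mice are labelled as having no treatment and no vehicle group is described, so handling and vehicle belong to the difference between treated and baseline hearts. The labels give the cell type as various, and whole-tissue RNA cannot tell fewer myocytes from less RNA per myocyte. Whether each library is its own mouse is not stated, so n and the word heart below count libraries.

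The sarcomere is the repeating contractile unit of striated muscle. Myosin thick filaments, centred on the M band, pull on actin thin filaments that are anchored at the Z discs, and titin spans from Z disc to M band as a spring and scaffold. Troponins and tropomyosin make the thin filament sensitive to calcium, and the desmin network ties neighbouring myofibrils together at the Z discs. Worn sarcomere proteins are removed in part through muscle ubiquitin ligases such as MuRF1 (Trim63) and atrogin-1 (Fbxo32), while chaperones such as Unc45b fold new myosin.

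By GENCODE M21 on GRCm38, the genes with the largest changes are protein-coding and lie at chr2:114047282-114053548 (Actc1), chr11:98383811-98384953 (Tcap), chr2:91118144-91136516 (Mybpc3), chr3:142239590-142395696 (Pdlim5), chr14:20658946-20668354 (Synpo2l) and chr15:58175879-58214932 (Fbxo32). The values below are counts over whole genes.

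Libraries held 20910394 to 30368985 assigned reads, with 22.3% to 29.3% of them from mitochondrially encoded genes. Each of the 14 cardiomyocyte markers outside the sarcomere was detected in every group, and skeletal muscle markers summed to 1.61 to 4.52 CPM (gene counts over the TMM-scaled library total) in any library, with 1 to 3 of the 11 at 0 in each group. In ISO hearts at day 1 the 14 cardiomyocyte markers summed to 29852 to 36533 CPM, against 41675 to 43076 CPM at ISO baseline. Of the 14, 11 were lower, while 32.8% of all tested genes were. In LPS hearts at day 1 the markers summed to 30070 to 37203 CPM, against 40913 to 42799 CPM at LPS baseline. Of the 14, 8 were lower, while 33% of all tested genes were. The fall was not limited to cardiomyocyte markers. Fibroblast markers averaged 1356 CPM at ISO day 1 and 2140 CPM at ISO baseline, and 1562 CPM at LPS day 1 and 2259 CPM at LPS baseline. Macrophage marker sums were also lower at day 1 in both arms, while endothelial and neutrophil marker sums were higher. The part that the decline of cardiomyocyte markers has in the falls of sarcomere genes was not tested. At day 7 the third ISO library stood apart with a fibroblast marker sum of 3989 CPM, where the other ISO day 7 libraries began at 1839 CPM.

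On the per-length scale of TPM, which allows levels of different genes to be compared, the members made up 4.25% to 4.6% of all TPM in ISO hearts at day 1, against 5.2% to 5.36% at ISO baseline. In LPS hearts at day 1 they made up 3.86% to 4.30%, against 4.96% to 5.11% at LPS baseline. The groups did not overlap in either arm. Their mean share was 4.06% at LPS day 1 and 5.00% at LPS baseline, and without Actc1 it was 3.93% at LPS day 1 and 4.34% at LPS baseline, so that most of the LPS difference was this gene. The highest level in every baseline library group belonged to ventricular myosin regulatory light chain, Myl2, at a mean of 10806 TPM at ISO baseline and 9975 TPM at LPS baseline, followed by tropomyosin Tpm1, cardiac actin Actc1 and cardiac troponin T Tnnt2. The lowest was the ligase gene Fbxo32, at 24.8 TPM at ISO baseline and 23.4 TPM at LPS baseline. At day 1 after LPS Actc1 took rank 8 of the 32, and rank 3 at LPS baseline; at day 1 after ISO titin-cap, Tcap, took rank 15, and rank 8 at ISO baseline.

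**Figure D1:**
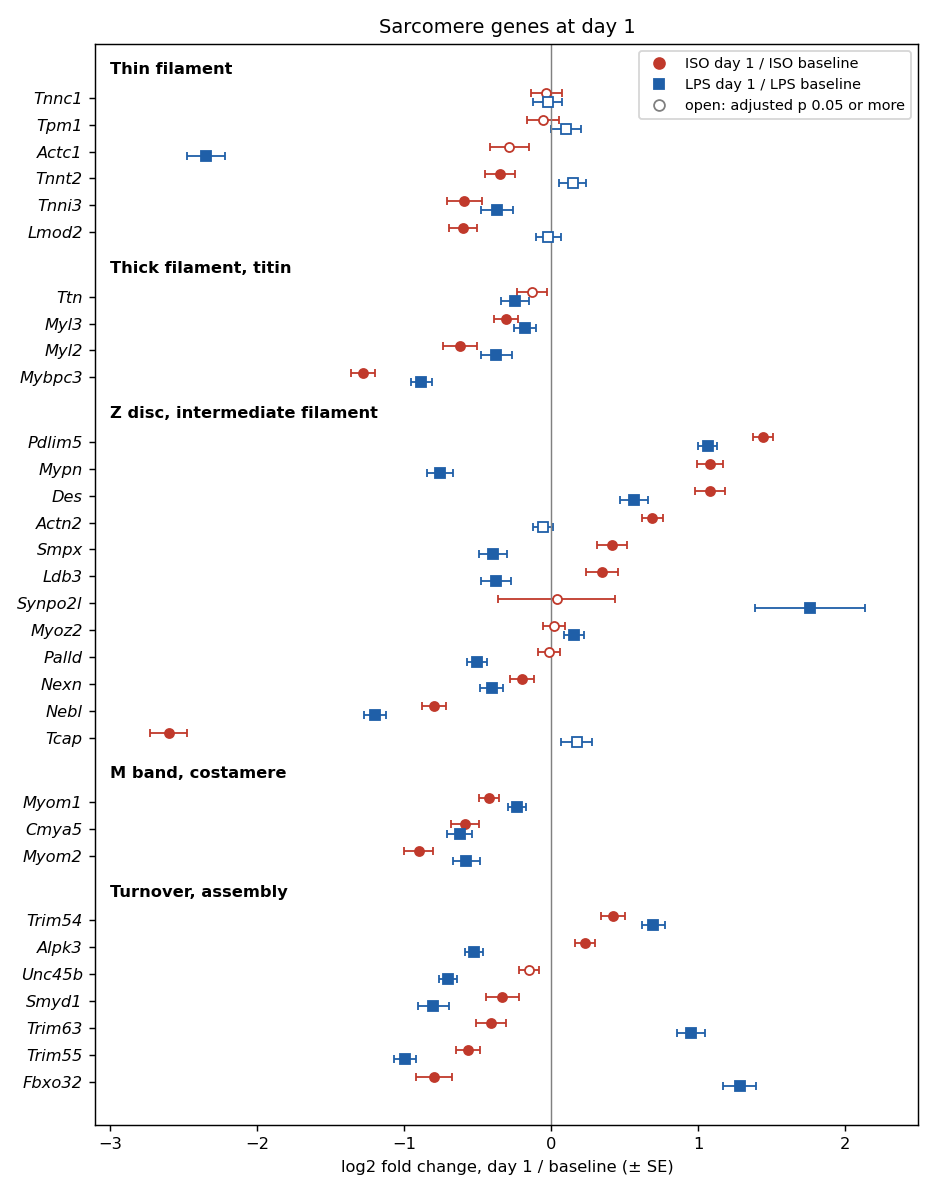
Log2 fold change (± SE) of each of the 32 members on day 1 over the baseline of the same arm, for ISO (red circles) and LPS (blue squares), in 5 role groups; filled symbols passed an adjusted p of 0.05. Filament and M band genes lie at or left of 0 apart from small unfilled LPS values, Z disc and turnover genes spread to both sides, and the extremes are Tcap after ISO (-2.60) and Actc1 after LPS (-2.35).

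One day after isoproterenol 3 of 6 thin filament genes, 3 of 4 genes of the thick filament and titin and all 3 M band and costamere genes were lower and none was higher, while 6 of 12 Z disc genes were higher. Tcap, whose protein caps titin at the Z disc, fell to 16.5% of its baseline level, and Mybpc3, cardiac myosin-binding protein C, to 41.2%. Pdlim5 (a PDZ and LIM domain protein of the Z disc), Mypn (myopalladin) and Des (desmin) each rose more than 2-fold. In all, 8 of 32 members rose and 16 fell in edgeR's quasi-likelihood test at an adjusted p under 0.05, while 32.9% of all tested genes were higher and 32.8% lower, 65.7% in all. The median log2 fold change was -0.24 over the members and -0.01 over all tested genes.

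Of the 6 thin filament genes, 3 fell after ISO and the others did not pass the test. Lmod2, leiomodin 2, which promotes elongation of the thin filament, stood at 329, 299 and 389.7 CPM in the ISO day 1 hearts, against 528, 486, 555 and 483 CPM at ISO baseline. Each treated heart was below each baseline heart, and the log2 fold change was -0.60 (SE 0.10, adjusted p = 9.3e-06). Tnni3, cardiac troponin I, the inhibitory subunit, was at 2147, 2004 and 2449 CPM in ISO day 1 hearts, against 3553, 3285, 3316 and 3105 CPM at ISO baseline, and Tnnt2, the tropomyosin-binding subunit, at 4514, 4312 and 4825 CPM in ISO day 1 hearts, against 6371, 5389, 6138 and 5235 CPM at ISO baseline. Both separated fully, with log2 fold changes of -0.59 (SE 0.12) and -0.35 (SE 0.10). Tnnc1, the calcium-binding troponin C, was at 1416, 1508 and 1705 CPM in ISO day 1 hearts, against 1706, 1582, 1549 and 1471 CPM at ISO baseline, and Tpm1 at 7026, 6673 and 7630.0 CPM in ISO day 1 hearts, against 8171, 7175, 7236 and 6939 CPM at ISO baseline. These groups overlapped, and the differences of -0.03 and -0.05 were smaller than their standard errors of 0.11. Cardiac actin Actc1 read 6367, 6464 and 8622 CPM in ISO day 1 hearts, against 8995, 9315, 7553 and 8931 CPM at ISO baseline. The third treated heart lay within the baseline range, and the change of -0.28 (SE 0.13) did not pass (adjusted p = 0.068); leaving that heart out gave -0.44 at an adjusted p of 0.0104.

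Among the 4 genes of the thick filament and titin, the 3 genes for myosin-associated proteins fell and titin did not pass. Mybpc3, which tunes cross-bridge cycling, measured 1579, 1540.1 and 1579 CPM in ISO day 1 hearts, against 3974, 3652, 3993 and 3583 CPM at ISO baseline. The treated hearts were nearly alike and far under the baseline range, with a log2 fold change of -1.28 (SE 0.08, adjusted p = 6.3e-12). Myl2 was at 3409.7, 3195 and 3552 CPM in ISO day 1 hearts, against 5595, 5046, 5129 and 5015 CPM at ISO baseline, and Myl3, the essential light chain, at 2872, 2847 and 3261 CPM in ISO day 1 hearts, against 3817, 3543, 3840.1 and 3608 CPM at ISO baseline. Both fell without overlap, by 0.62 (SE 0.11) and 0.31 (SE 0.08) on the log2 scale. Ttn, titin, was at 4344, 4095 and 3961 CPM in ISO day 1 hearts, against 3939, 4705, 4597 and 4864 CPM at ISO baseline, with overlapping groups (-0.13, SE 0.10, adjusted p = 0.27).

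The Z disc group held the largest changes in both directions, with 6 of 12 genes higher and 3 lower. Tcap was at 201, 166 and 254 CPM in ISO day 1 hearts, against 1291, 1201, 1351 and 1184 CPM at ISO baseline, a log2 fold change of -2.60 (SE 0.13, adjusted p = 1.0e-13). Nebl, nebulette, an actin-binding Z disc protein, was at 155, 158 and 172 CPM in ISO day 1 hearts, against 272, 289, 282 and 279 CPM at ISO baseline (-0.79, SE 0.08). Both genes separated fully between the groups. Nexn, nexilin, was lower by a margin close to the threshold (-0.20, SE 0.08, adjusted p = 0.044), and the call was lost in 11 of 39 alternatives, among them those without the first or the second ISO day 1 library (-0.32 to -0.11 over all alternatives).

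Pdlim5 measured 937, 1008 and 986 CPM in ISO day 1 hearts, against 358, 359, 344 and 374 CPM at ISO baseline. This was the largest rise among the members after ISO (log2 1.45, SE 0.07, adjusted p = 6.0e-14). Des was at 4111, 5033 and 4855 CPM after ISO, against 2186, 2174, 2358 and 2103 CPM at baseline (1.08, SE 0.10, adjusted p = 5.6e-09). Mypn, which links nebulin-family proteins to α-actinin, was at 334, 393 and 319.8 CPM after ISO, against 153, 165, 170.2 and 171 CPM at baseline (1.08, SE 0.09, adjusted p = 5.9e-10). None of the 3 genes had an ISO day 1 heart within the baseline range. Actn2, α-actinin 2, the main cross-linker of the Z disc, was at 3116, 3328 and 3683 CPM in ISO day 1 hearts, against 2142, 2137, 2070.0 and 2036 CPM at ISO baseline, and rose by 0.69 (SE 0.07). Smpx, a small protein of the costamere region, rose by 0.41 (SE 0.10), and Ldb3 (Cypher) by 0.35 (SE 0.11) on the log2 scale. The Ldb3 call was lost without the third ISO day 1 library (adjusted p = 0.0578). Palld (palladin), Myoz2 (calsarcin 1) and Synpo2l (a synaptopodin relative of the Z disc) did not pass, at -0.02, 0.02 and 0.04.

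All 3 genes of the M band and costamere fell after ISO. Myom2, the M protein that cross-links thick filaments, was at 696, 745 and 626 CPM in ISO day 1 hearts, against 1149.9, 1235, 1521 and 1239.7 CPM at ISO baseline, with no overlap (-0.90, SE 0.10, adjusted p = 5.0e-08). Cmya5, myospryn, was at 796, 653 and 769 CPM in ISO day 1 hearts, against 1009, 1148, 1162 and 1115 CPM at ISO baseline, and Myom1, myomesin 1, at 1050.4, 1041 and 1206 CPM in ISO day 1 hearts, against 1519, 1411, 1541 and 1419.9 CPM at ISO baseline. Their log2 fold changes were -0.58 (SE 0.09) and -0.42 (SE 0.07), again with no overlap. Myom1 overlaps the neighbouring gene Myl12a, whose highest CPM was 44.0% of the highest CPM of Myom1, and strand use in counting is not given in the sources used here.

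Of the 7 turnover and assembly genes, 4 fell after ISO and 2 rose. Fbxo32 measured 83.5, 87.4 and 89.9 CPM in ISO day 1 hearts, against 145, 131, 174 and 154 CPM at ISO baseline, a clear separation (-0.80, SE 0.12, adjusted p = 5.4e-06). Trim63 was at 131, 107 and 161 CPM after ISO, against 195, 162, 193 and 154 CPM at baseline; the groups overlapped, and the change of -0.41 (SE 0.10) passed at an adjusted p of 0.0016. Its relatives went separate ways. Trim55 (MuRF2) was at 32.6, 41 and 41.1 CPM in ISO day 1 hearts, against 59.4, 54, 56.6 and 56.1 CPM at ISO baseline, and Trim54 (MuRF3) at 266, 283 and 295 CPM in ISO day 1 hearts, against 245, 185, 208 and 202 CPM at ISO baseline. Trim55 fell by 0.56 (SE 0.08) and Trim54 rose by 0.42 (SE 0.08) on the log2 scale. The Trim55 call was lost on the log2(TPM + 0.1) scale, at -0.17 (adjusted p = 0.188). Alpk3, an α-kinase of the M band needed for sarcomere upkeep, was at 172, 183 and 182 CPM in ISO day 1 hearts, against 149, 151, 158 and 154 CPM at ISO baseline. It rose by 0.23 (SE 0.07), a call lost under upper-quartile scaling (0.10, adjusted p = 0.178). Smyd1, a myosin-directed methyltransferase and chaperone, was at 307, 304 and 399 CPM in ISO day 1 hearts, against 424, 423, 425 and 419.7 CPM at ISO baseline. It fell by 0.33 (SE 0.11), a call lost without the first or the second ISO day 1 library (adjusted p = 0.0726 and 0.0777), and the myosin chaperone Unc45b did not pass (-0.15, SE 0.07, adjusted p = 0.052).

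Outside the members, 78 tested genes of wider sarcomere lists gave 41 higher and 26 lower after ISO. These lists were chosen with earlier results of these data known, so their counts are not independent of the data. Of all tested genes, 32.9% were higher and 32.8% lower. The wider Z disc and costamere list held 21 of 27 higher and 3 lower. The smallest adjusted p-values among its rises belonged to Fhl1 (a LIM protein that binds titin), Flnc (filamin C), Actn1 and Cryab, the αB-crystallin chaperone, with log2 fold changes of 4.74, 3.61, 2.40 and 2.06. The wider filament list held 5 of 15 higher and 8 lower. Tpm3 (1.44), Myl6 (0.90), Myl4 (2.13) and Acta1 (1.60) rose there, and Lmod3 (-3.35), Mylk4 (-2.95), Myh7b (-2.36) and Mylk3 (-1.12) fell. The groups overlapped for Myl4, an atrial light chain gene at a mean of 5.51 CPM at ISO day 1 and 1.23 CPM at ISO baseline. Atrial markers, with Myl4 among the 7, summed to 173 to 223 CPM at ISO day 1, against 100.4 to 123 CPM at ISO baseline, with 3 higher and 1 lower of 5 tested, and their part was not tested. Endothelial markers summed to 1594 to 1773 CPM at ISO day 1, against 915 to 998 CPM at ISO baseline. The part of endothelial markers in the rises of the wider lists was not tested. All 5 genes of the wider M band list were called, of which Speg rose (0.66), and Fsd2 (-1.30) and Obsl1 (-1.15) were among the 4 that fell. The wider turnover list was mixed, with 14 of 31 higher and 11 lower. Klhl40 (3.38) and Klhl41 (2.37), which stabilise thin filament proteins, the small heat shock gene Hspb7 (1.84) and the calpain Capn2 (0.86) rose, and Trim72 (-1.50), Foxo3 (-1.13), Klf15 (-0.89) and Capn1 (-0.54) fell. Foxo3 encodes a transcription factor known to drive atrogin-1 in muscle. At LPS day 1, where Fbxo32 rose, Foxo3 was not called (-0.21, SE 0.13) and Foxo1 was higher (0.43, SE 0.06). The part of these genes in the Fbxo32 values was not tested.

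One day after LPS 2 of 6 thin filament genes, all 4 genes of the thick filament and titin and all 3 M band and costamere genes were lower, and none was higher. Cardiac actin, Actc1, fell to 19.6% of its baseline level and Nebl to 43.7%. The ligase genes Fbxo32, Trim63 and Trim54 all rose, as did Pdlim5 and Des. In all, 7 of 32 members rose and 19 fell, while 33.2% of all tested genes were higher and 33% lower, 66.2% in all. The median log2 fold change was -0.31 over the members and 0.00 over all tested genes.

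Of the thin filament genes, Actc1 and Tnni3 fell after LPS and the other 4 did not pass. Actc1 measured 1579, 1692, 1359.6 and 1667 CPM in LPS day 1 hearts, against 8091, 7825, 7901 and 8279 CPM at LPS baseline. Every treated heart was far under every baseline heart (log2 -2.35, SE 0.13, adjusted p = 4.3e-13), and the call held in all 39 alternatives, from -2.44 to -2.28. On the TPM scale Actb was at a mean of 547 TPM at LPS day 1 and 299 TPM at LPS baseline, Actg1 at 241 TPM at LPS day 1 and 179 TPM at LPS baseline, and Acta1 at 103 TPM at LPS day 1 and 113 TPM at LPS baseline, while Actc1 was at 1268 TPM at LPS day 1 and 6643 TPM at LPS baseline. Actin genes are similar in sequence, so the split of reads among them is uncertain. Tnni3 was at 2673, 3373, 2107 and 2553 CPM in LPS day 1 hearts, against 3612, 3519, 3301 and 3400.3 CPM at LPS baseline, with 1 treated heart inside the baseline range (-0.37, SE 0.11). The log2 fold changes of Tnnt2, Tnnc1, Tpm1 and Lmod2 lay between -0.02 and 0.15.

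All 4 genes of the thick filament and titin fell after LPS. Mybpc3 was at 2143, 2293, 1863 and 1809 CPM in LPS day 1 hearts, against 3927, 3699, 3584 and 3724 CPM at LPS baseline, with no overlap (-0.88, SE 0.07, adjusted p = 4.0e-10). Ttn was at 3101, 3191, 3413 and 4429.6 CPM in LPS day 1 hearts, against 4249, 4318, 3800.0 and 4376 CPM at LPS baseline, and Myl3 at 3024, 3555, 2624 and 2841 CPM in LPS day 1 hearts, against 3632, 3487, 3217 and 3285 CPM at LPS baseline. Myl2 fell by 0.37 (SE 0.10), Ttn by 0.24 (SE 0.09) and Myl3 by 0.18 (SE 0.07, adjusted p = 0.036). The groups overlapped for Ttn, with 1 LPS day 1 heart above and 3 below the baseline range, for Myl3, and for Myl2, whose second LPS day 1 heart, at 4574 CPM, lay within the baseline range of 4393 to 4934 CPM. The Ttn and Myl3 calls could be lost by leaving out a single library, among them the first, the second or the third LPS day 1 library for Ttn and libraries 1, 3 or 4 for Myl3, and over all alternatives the changes ran from -0.41 to -0.09 for Ttn and from -0.32 to -0.05 for Myl3.

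In the Z disc group 4 of 12 genes rose and 6 fell after LPS. Nebl was at 101, 109.6, 125 and 130.3 CPM in LPS day 1 hearts, against 272, 281, 251 and 265 CPM at LPS baseline (-1.2, SE 0.07, adjusted p = 2.4e-12). Mypn, which had risen after ISO, was at 89.5, 99.9, 128 and 121 CPM after LPS, against 182, 188, 185 and 186 CPM at LPS baseline (-0.75, SE 0.09, adjusted p = 5.9e-08). Both separated fully. Palld, which encodes a relative of myopalladin, was at 199.8, 242, 187 and 217 CPM in LPS day 1 hearts, against 285, 316, 305 and 291 CPM at LPS baseline (-0.50, SE 0.07), and Nexn at 304, 341, 305 and 358 CPM in LPS day 1 hearts, against 441, 458, 418 and 414 CPM at LPS baseline (-0.40, SE 0.08). Smpx and Ldb3 fell by 0.40 and 0.38. Pdlim5 measured 693, 772, 679 and 688 CPM in LPS day 1 hearts, against 329, 327, 360.5 and 335 CPM at LPS baseline (1.07, SE 0.06, adjusted p = 1.7e-12). Des was at 4008, 4129.5, 2778 and 3169 CPM after LPS, against 2401, 2495, 2289 and 2342 CPM at baseline, all above the baseline range (0.56, SE 0.10). Tcap did not pass (0.17, SE 0.11, adjusted p = 0.16), and Myoz2 was called at 0.16 (SE 0.07, adjusted p = 0.048), a call lost in 25 of 39 alternatives, most of which left out a single library (0.06 to 0.23 over all alternatives).

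Synpo2l split the LPS day 1 libraries. It read 993, 906, 116 and 261 CPM there, against 163, 168, 177 and 162 CPM at LPS baseline. Of these libraries 2 were far above, 1 was above and 1 was under the baseline range. The log2 fold change was 1.76 (SE 0.38, adjusted p = 2.6e-04). Without the first and second library it was 0.17 (adjusted p = 0.447), and without the other 2 it was 2.50. These 4 libraries were also nearest in pairs across all genes, a grouping used after the data were seen. The root-mean-square log2 difference was 0.49 between the first and second and 0.45 between the other pair. It was 0.52 to 0.64 between libraries of different pairs, and 0.41 to 0.60 among the ISO day 7 libraries. Ldb3 was at 639.9 and 613 CPM in the first pair and 871 and 963 CPM in the second, and its call was lost without the first pair (-0.12, adjusted p = 0.169). The calls for Myl2, Tnni3 and Myl3 were lost without the second pair (-0.15, -0.19 and -0.05).

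**Figure D2:**
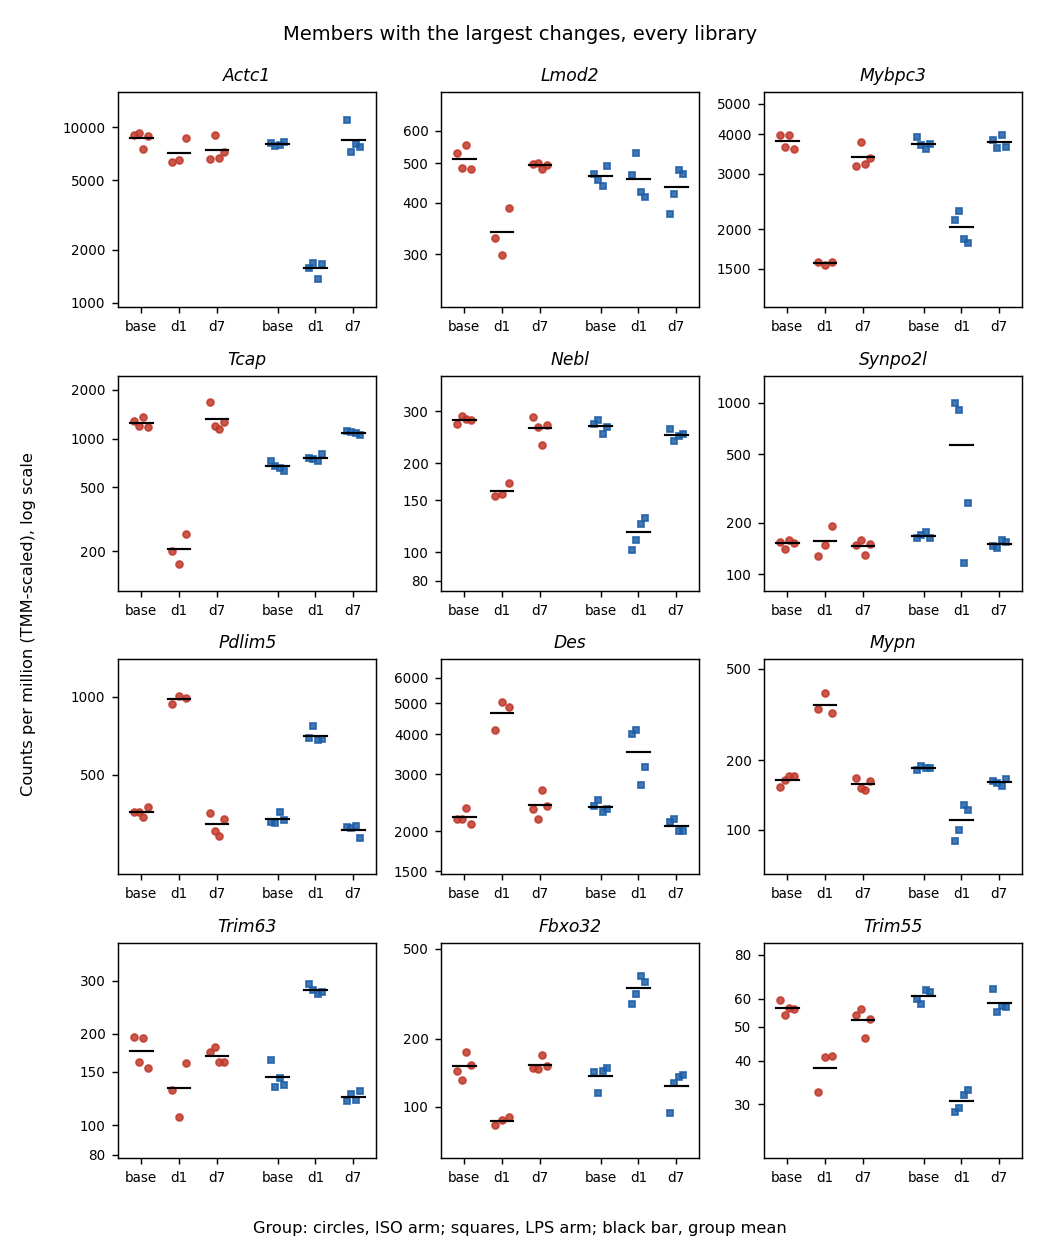
CPM (TMM-scaled, log scale) of 12 members in every library at baseline, day 1 and day 7 of the ISO arm (red circles) and the LPS arm (blue squares); black bars are group means. Actc1 lies between 1359.6 and 1692 CPM at LPS day 1 and between 7182 and 10956 CPM at LPS day 7, Tcap is lowest at ISO day 1, Fbxo32 and Trim63 move in opposite directions in the arms, and Synpo2l is spread from 116 to 993 CPM at LPS day 1.

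In the M band and costamere group all 3 genes fell after LPS, Cmya5 by 0.62 (SE 0.09), Myom2 by 0.58 (SE 0.09) and Myom1 by 0.23 (SE 0.06). Myom2 was at 829.7, 1010.1, 776 and 835 CPM in LPS day 1 hearts, against 1333, 1374, 1173 and 1261 CPM at LPS baseline, and Myom1 at 1253, 1378, 1249.6 and 1327 CPM in LPS day 1 hearts, against 1589, 1573, 1491 and 1465 CPM at LPS baseline. The fall of Myom1 was not called when its deposited effective length was used as an offset (-0.08, adjusted p = 0.356). Cmya5 was at 636, 701, 698 and 741 CPM in LPS day 1 hearts, against 1062, 1111, 1026 and 1071 CPM at LPS baseline, a full separation.

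The turnover and assembly genes parted after LPS, with 3 ligase genes higher and 4 other members lower. Fbxo32 measured 285, 316, 379.8 and 358 CPM in LPS day 1 hearts, against 142, 116, 144 and 148 CPM at LPS baseline (1.28, SE 0.11, adjusted p = 9.1e-10). Trim63 was at 292, 279, 271 and 276 CPM after LPS, against 164, 134, 143 and 136 CPM at baseline (0.95, SE 0.10, adjusted p = 9.4e-09). Trim54 was at 287, 343, 282 and 321 CPM in LPS day 1 hearts, against 190.5, 204, 179 and 188 CPM at LPS baseline (0.70, SE 0.08). All LPS day 1 hearts were above the baseline range for these 3 genes. Trim55, the remaining MuRF gene, was at 28.6, 29.3, 32 and 32.9 CPM after LPS, against 60, 57.9, 63.7 and 62.7 CPM at baseline (-0.99, SE 0.07, adjusted p = 8.2e-11). The myosin chaperone gene Unc45b was at 119.9, 130.4, 129 and 128 CPM in LPS day 1 hearts, against 207, 211, 203 and 202 CPM at LPS baseline, Smyd1 at 205, 276, 193 and 223 CPM in LPS day 1 hearts, against 394, 407, 379 and 382 CPM at LPS baseline, and Alpk3 at 120.3, 119.7, 107 and 133 CPM in LPS day 1 hearts, against 171, 162, 175 and 182 CPM at LPS baseline. All 3 were below the baseline range in every LPS day 1 heart, with log2 fold changes of -0.70 (SE 0.06), -0.80 (SE 0.10) and -0.52 (SE 0.06). Smyd1 overlaps the gene Krcc1, whose highest CPM was 5.93% of the highest CPM of Smyd1.

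Among the 78 wider sarcomere genes 31 rose and 28 fell after LPS, while 33.2% of all tested genes were higher and 33% lower. Here too the lists were chosen with earlier results known, so the counts are not independent of the data. The wider Z disc and costamere list gave 13 of 27 higher and 6 lower, with Ankrd1 (the stretch-responsive protein CARP, 3.32), Fhl1 (1.52), Actn1 (1.29) and Nrap (0.90) among the rises and Fhl2 (-1.54), Fblim1 (-1.36), Pdlim4 (-1.27) and Cavin4 (-0.78) among the falls. The wider filament list gave 1 of 15 higher, Tpm3 (1.61), and 8 lower, among them Lmod3 (-2.66), Mylk4 (-2.10), Myh7b (-1.96) and Mylk3 (-1.44), the cardiac myosin light chain kinase gene. All 5 wider M band genes fell, among them Fsd2 (-2.19), Speg (-1.17) and Obsl1 (-0.83). The wider turnover list gave 17 of 31 higher and 9 lower. Hspb1 (1.70), Hspb7 (1.03) and Capn2 (0.53) rose, and the ubiquitin ligase adaptors Fbxl22 (-2.55), Asb2 (-2.23), Klhl31 (-1.30) and Fbxo40 (-0.56) fell. Smooth muscle and pericyte markers, which include genes that also encode contractile proteins, summed to 782 to 886 CPM at LPS day 1, against 1274 to 1393 CPM at LPS baseline, and their part in these values was not tested. Neutrophil markers summed to 6.84 to 11.2 CPM after LPS, against 0.434 to 0.633 CPM at LPS baseline.

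Between the arms, 30 of 32 members were called at day 1 in at least one of the comparisons, 14 were called in the same direction in both, and 6 in opposite directions, while 82.3%, 44.1% and 5.45% of all tested genes were called in these ways. The 14 were Des, Pdlim5 and Trim54, which rose in both, and Mybpc3, Myl2, Myl3, Tnni3, Nebl, Nexn, Myom1, Myom2, Cmya5, Trim55 and Smyd1, which fell in both. Mypn, Ldb3, Smpx and Alpk3 rose after ISO and fell after LPS, and Fbxo32 and Trim63 fell after ISO and rose after LPS. Only Tnnc1 and Tpm1 were called in neither. Of the calls named here, those of Nexn, Smyd1, Trim55, Ldb3 and Alpk3 after ISO and those of Myl2, Myl3, Tnni3, Myom1 and Ldb3 after LPS were lost under at least one alternative.

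The difference between the responses was tested as an interaction, the ISO change minus the LPS change, in the same model. It was called for 20 members, 13 with the higher and 7 with the lower value after ISO, while 19.5% and 18.2% of all tested genes were called in these directions, 37.6% in all. The largest differences were Tcap (-2.77, SE 0.16, adjusted p = 5.8e-12), Fbxo32 (-2.08, SE 0.17, adjusted p = 1.4e-09), Actc1 (2.07, SE 0.18, adjusted p = 7.1e-09) and Mypn (1.84, SE 0.12, adjusted p = 9.2e-11). For Tcap the untreated groups already differed, ISO baseline over LPS baseline (0.90, SE 0.11), and that difference enters its value. Trim63 differed by -1.36 (SE 0.14), Alpk3 by 0.75 (SE 0.09), Actn2 by 0.74 (SE 0.10), Smpx by 0.81 (SE 0.14), Unc45b by 0.55 (SE 0.09) and Ldb3 by 0.72 (SE 0.15). For Mybpc3 and Pdlim5, called in the same direction in both arms, the responses still differed in size, by -0.40 (SE 0.11) and 0.38 (SE 0.09). The Synpo2l difference was -1.72 (SE 0.55, adjusted p = 0.015); leaving out the first and second LPS day 1 library made it -0.13 (adjusted p = 0.719). In the M band group no difference passed, with Cmya5 at 0.04, Myom1 at -0.19 and Myom2 at -0.33 (SE 0.13 for Cmya5 and Myom2, 0.09 for Myom1).

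**Figure D3:**
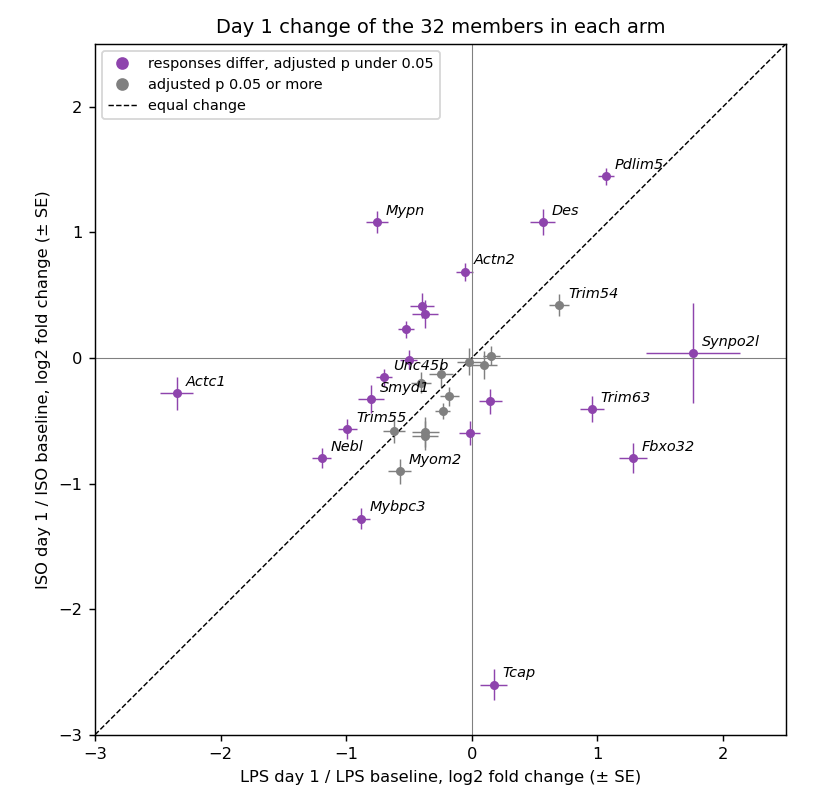
Log2 fold change (± SE) at day 1 after ISO (vertical axis) against that after LPS (horizontal axis) for the 32 members; purple points have an ISO change minus LPS change with an adjusted p under 0.05, and the dashed line marks equal change. Pdlim5 and Des lie in the upper right, Mybpc3 and Nebl in the lower left, Mypn (difference 1.84) in the upper left, Fbxo32 and Trim63 in the lower right, and Tcap and Actc1 near a single axis.

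The promoter sequences of the 2 members with the largest rises and the 2 with the largest falls at day 1 for which a window was at hand are printed to show what lies at their starts. Each window runs from 250 bases before to 50 after the start listed by RefSeq on GRCm38.p6, 5' to 3' on the strand of the gene, and capitals mark matches, on either strand, to the FOXO letters GTAAACA, the TATA letters TATAAA, the E-box CANNTG, the GATA letters AGATAA, the M-CAT letters CATTCC, the TGACG core of the cAMP response element, the glucocorticoid-type letters TGTTCT, and the CArG and MEF2 elements. The windows are chr2:114052826-114053125 for Actc1 on the minus strand, chr2:91117894-91118193 for Mybpc3 on the plus strand, chr14:20668305-20668604 for Synpo2l on the minus strand and chr3:142395647-142395946 for Pdlim5 on the minus strand.
Actc1: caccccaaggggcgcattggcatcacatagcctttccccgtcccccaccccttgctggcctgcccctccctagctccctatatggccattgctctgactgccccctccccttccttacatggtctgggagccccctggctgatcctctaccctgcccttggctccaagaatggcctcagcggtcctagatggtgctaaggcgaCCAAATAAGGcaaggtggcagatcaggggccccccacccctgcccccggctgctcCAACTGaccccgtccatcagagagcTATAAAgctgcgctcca
Mybpc3: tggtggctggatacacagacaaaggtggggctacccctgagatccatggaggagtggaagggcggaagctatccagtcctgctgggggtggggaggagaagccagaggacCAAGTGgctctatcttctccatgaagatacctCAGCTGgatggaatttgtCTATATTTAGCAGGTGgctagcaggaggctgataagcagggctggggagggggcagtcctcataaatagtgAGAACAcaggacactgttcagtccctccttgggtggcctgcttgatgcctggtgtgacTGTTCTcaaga
Synpo2l: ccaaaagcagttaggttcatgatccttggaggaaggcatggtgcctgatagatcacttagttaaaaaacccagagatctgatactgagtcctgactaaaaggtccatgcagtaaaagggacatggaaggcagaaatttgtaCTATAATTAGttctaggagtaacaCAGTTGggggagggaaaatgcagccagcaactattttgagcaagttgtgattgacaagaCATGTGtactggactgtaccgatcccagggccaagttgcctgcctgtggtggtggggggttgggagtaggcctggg
Pdlim5: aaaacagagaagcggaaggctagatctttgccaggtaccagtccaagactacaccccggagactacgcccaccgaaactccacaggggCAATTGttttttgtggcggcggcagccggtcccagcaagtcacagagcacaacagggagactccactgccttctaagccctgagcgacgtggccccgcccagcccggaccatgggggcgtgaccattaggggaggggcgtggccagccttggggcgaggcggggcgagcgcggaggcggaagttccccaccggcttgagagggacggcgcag
The Actc1 window held a CArG match at position -47 from the listed start, which lies 673 bases from the GENCODE start, and a TATA match at position 33. In Mybpc3 and Synpo2l a MEF2 match began at positions -90 and -109, and in Mybpc3 an E-box follows it directly. The Pdlim5 window held a single E-box.

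Windows were at hand for 27 members. The start listed by RefSeq can lie far from the GENCODE start. The distance was 21817 bases for Myl3, 16924 for Myom1, 7762 for Myl2 and 59952 for Smyd1. CArG matches were found in 4 of the 27 (14.8%), Actc1, Ldb3, Myl3 and Myom1, and in 1.63% of 32851 windows listed for the genome. MEF2 matches were found in 5 (18.5%), Alpk3, Mybpc3, Myoz2, Synpo2l and Ttn, and in 3.19% of all windows. TATA letters were found in 6 (22.2%, and 13.6% of all windows), M-CAT letters in 8 (29.6%, and 14.7%), TGACG in 7 (25.9%, and 20.8%), TGTTCT in 7 (25.9%, and 19.0%), GATA letters in 4 (14.8%, and 11.2%) and an E-box in 24 (88.9%, and 72.3%). Trim63 was the 1 member with the FOXO letters (3.70%, and 3.65% of all windows). The 4 CArG-holding members were called lower after LPS, as were 19 of the 32 members and 33% of all tested genes; the calls of Ldb3, Myl3 and Myom1 were each lost under an alternative and that of Actc1 under none. After ISO Myl3 and Myom1 fell, Ldb3 rose and Actc1 did not pass. Of the 5 MEF2-holding members, Alpk3 and Mybpc3 fell after LPS under every alternative, while the lower call of Ttn and the higher calls of Myoz2 and Synpo2l were lost under some. A match is a run of letters in a window, not a bound site.

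At day 7 after isoproterenol no member passed the test. None of the 32 was called in edgeR's test, in limma-voom or in DESeq2, 3 had an unadjusted p under 0.05, and 0.00636% of all tested genes were called. The log2 fold changes ran from -0.24 to 0.17. Tcap was at 1679, 1198, 1146 and 1270.0 CPM at ISO day 7, against 1291, 1201, 1351 and 1184 CPM at ISO baseline, with overlapping groups (0.07, SE 0.11). Against ISO day 1, 14 members were higher at day 7 and 8 lower, while 33.2% and 31.9% of all tested genes were, 65.1% in all. The highest were Tcap (2.67, SE 0.13), Mybpc3 (1.11, SE 0.08) and Myom2 (1.02, SE 0.10), and the lowest were Pdlim5 (-1.60, SE 0.07), Mypn (-1.15, SE 0.09) and Des (-0.96, SE 0.10). These values share the ISO day 1 libraries with the day 1 comparison.

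At day 7 after LPS 5 members differed from LPS baseline. Of these, Tcap had not passed at LPS day 1 and Myoz2 had been called in the other direction there. Tcap rose, and Cmya5, Myoz2, Alpk3 and Myom1 fell, 1 higher and 4 lower of 32, while 5.96% of all tested genes were higher and 3.13% lower, 9.1% in all. Cmya5 was at 751, 869, 792 and 822 CPM at LPS day 7, against 1062, 1111, 1026 and 1071 CPM at LPS baseline (-0.40, SE 0.09, adjusted p = 0.0052). Myoz2 was at 519, 586, 574 and 541 CPM at LPS day 7, against 696, 728, 666 and 682 CPM at LPS baseline (-0.32, SE 0.07, adjusted p = 0.0052). Alpk3 differed by -0.31 (SE 0.06, adjusted p = 0.0034) and Myom1 by -0.27 (SE 0.06, adjusted p = 0.0086). In CPM each day 7 heart was under each baseline heart for these 4 genes. In TPM the groups overlapped for Myom1 and Alpk3. Myom1 reached 326 TPM in an LPS day 7 heart and was at 321 TPM in an LPS baseline heart. Alpk3 reached 28.7 TPM in an LPS day 7 heart and was at 27.3 TPM in an LPS baseline heart.

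The count of falls changed with how libraries were scaled. With library totals 2 members were lower, and with log2(TPM + 0.1) in limma none was, with 3 higher. The median change of the members was -0.13 with TMM, 0.03 with library totals and 0.07 with log2(TPM + 0.1), where library totals and TPM moved the median of all genes to 0.16 and 0.20. The members made up 5.32% to 6.24% of all TPM at LPS day 7, against 4.96% to 5.11% at LPS baseline, and mitochondrially encoded genes held 23.2% to 26.3% of reads at LPS day 7, against 27.7% to 29.3% at LPS baseline. Macrophage markers summed to 366 to 444 CPM at LPS day 7, against 203 to 242 CPM at LPS baseline, with 8 of 8 higher, and cardiomyocyte markers outside the sarcomere to 34829 to 37410 CPM at LPS day 7, against 40913 to 42799 CPM at LPS baseline, with 4 of 14 lower. Of all tested genes, 5.96% were higher and 3.13% lower at LPS day 7. The part of either marker list in the members' values was not tested.

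Against LPS day 1, 15 members were higher at LPS day 7 and 8 lower, while 33.9% and 32.5% of all tested genes were, 66.4% in all. Actc1 was the highest, at 10956, 7182, 8033 and 7744 CPM at day 7, against 1579, 1692, 1359.6 and 1667 CPM at day 1 (2.43, SE 0.13, adjusted p = 3.0e-13), followed by Nebl (1.10, SE 0.07) and Trim55 (0.92, SE 0.07). Its day 7 hearts spanned the LPS baseline range on both sides (0.08, SE 0.12). Synpo2l (-1.92, SE 0.38), Fbxo32 (-1.43, SE 0.11), Pdlim5 (-1.21, SE 0.06), Trim63 (-1.17, SE 0.10) and Trim54 (-0.93, SE 0.08) were the lowest. Without the first and second LPS day 1 library the Synpo2l value was -0.33 and not called (adjusted p = 0.135). The day 7 responses of the arms, ISO change minus LPS change, differed for none of the members in edgeR's test or in limma-voom and for 2 in DESeq2, with 6 at an unadjusted p under 0.05, while 0.458% of all tested genes were called, 0.0953% with the higher and 0.362% with the lower value after ISO.

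The call of Tcap at LPS day 7 was lost against the other baseline. Tcap was at 1106, 1096, 1077 and 1051 CPM at LPS day 7, against 729, 675, 658 and 634 CPM at LPS baseline (0.68, SE 0.11, adjusted p = 3.7e-04), a full separation. The ISO baseline lay at 1184 to 1351 CPM, above both, so that Tcap was also the 1 member called between the untreated groups, ISO baseline over LPS baseline (0.90, SE 0.11, adjusted p = 3.7e-05), where 0.737% of all tested genes were higher and 0.477% lower, 1.21% in all. Set against the ISO baseline, Tcap at LPS day 7 differed by -0.21 (adjusted p = 0.195), and with both baselines pooled its change was 0.17 (adjusted p = 0.611).

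In mouse heart Tcap is known as a gene whose transcript follows the day-night cycle. The labels do not give the hour at which hearts were taken, so the clock genes Dbp and Arntl are set beside it. Dbp, an output gene of the clock, was at 7.72 to 17.1 CPM at ISO day 1, against 70.2 to 107 CPM at ISO baseline, and at 70.8 to 139 CPM at LPS day 7, against 26.6 to 36.9 CPM at LPS baseline. Between the untreated groups Dbp was higher in the ISO baseline (1.26, SE 0.24, adjusted p = 0.0066). Arntl, which encodes BMAL1, was at 15.1 to 19.5 CPM at ISO day 1, against 4.41 to 8.27 CPM at ISO baseline, and at 3.73 to 8.71 CPM at LPS day 7, against 11.2 to 15.2 CPM at LPS baseline. Tcap and Dbp were both lower at ISO day 1 and at LPS baseline than at ISO baseline. At LPS day 1 Tcap stood at 728 to 807 CPM, Dbp at 12.0 to 20.5 CPM and Arntl at 10.4 to 15.9 CPM. Over LPS baseline Dbp was lower there in edgeR's test (-0.94, adjusted p = 0.0022). Neither Tcap (0.17, adjusted p = 0.16) nor Arntl (-0.04, adjusted p = 0.90) passed it. The part of sampling hour in the values of Tcap was not tested.

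**Figure D4:**
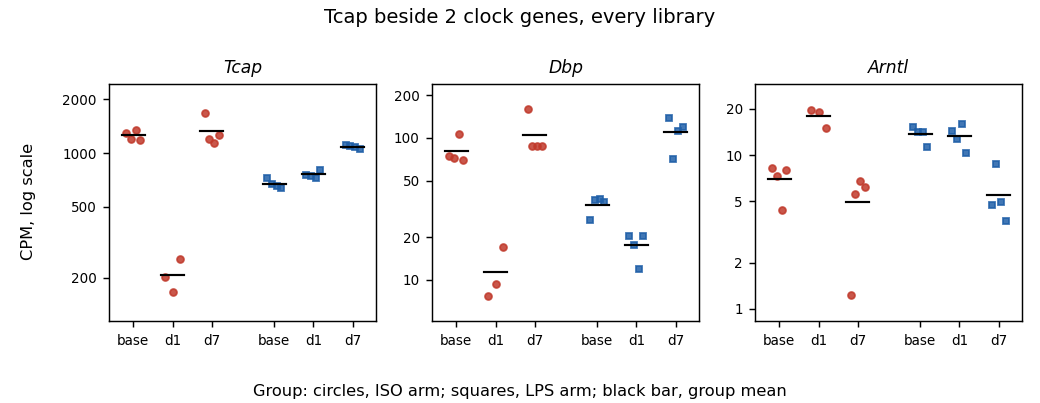
CPM (TMM-scaled, log scale) of Tcap, Dbp and Arntl in every library at baseline, day 1 and day 7 of the ISO arm (red circles) and the LPS arm (blue squares); black bars are group means. Tcap and Dbp are both lowest at ISO day 1 and lower at LPS baseline than at ISO baseline. At LPS day 1 Dbp is at 12.0 to 20.5 CPM, Arntl at 10.4 to 15.9 CPM and Tcap at 728 to 807 CPM.

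The deposited files also give an effective length for each gene in each library, which for a gene-level summary depends on which transcripts of the gene were assigned reads. Some members had shorter or longer values at day 1. After ISO their counts lay near the shares of all tested genes, so the ISO lengths below are not particular to the members. A member was counted when all treated libraries lay outside the baseline range and the mean differed by at least 5%, which was met by 3 shorter and 1 longer member after ISO, where 7% and 2.35% of tested genes met it, and by 6 shorter and 1 longer after LPS, where 4.27% and 2.45% met it. Trim55 was shorter in both arms, at a mean of 1828 ± 72.2 bases at ISO day 1 (SD, n = 3) and 2362 ± 122 bases at ISO baseline (SD, n = 4), and at 1970.1 ± 233 bases at LPS day 1 and 2359 ± 88.9 bases at LPS baseline (SD, n = 4 each). Palld (4585 ± 88.0 bases at ISO day 1 and 5183 ± 86.6 bases at ISO baseline) and Synpo2l (3933 ± 25 bases at ISO day 1 and 4418 ± 44.5 bases at ISO baseline) were likewise shorter after ISO, and after LPS differed by -7.98% and -8.02%. Pdlim5 was longer after ISO, at 1618 ± 15.4 bases at ISO day 1, against 1487 ± 10.9 bases at ISO baseline.

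After LPS, Myom1 (4659.9 ± 285 bases at LPS day 1 and 5247 ± 36.4 bases at LPS baseline), Ttn and Unc45b were shorter and Ldb3 was longer, at 2444 ± 81.4 bases at LPS day 1, against 2214 ± 30 bases at LPS baseline. Ldb3 was also longer after ISO, by 4.96%, just under the 5% required. Each of these members reached 0.0286 in an exact two-sided permutation test of its effective length, the smallest p-value that the group sizes allow. The rule that picked them already required full separation of the libraries, so this p-value adds no support to it. None can survive adjustment over many genes. At day 7 no member met the rule after ISO, where 0.661% of tested genes were shorter and 0.489% longer, and after LPS Ttn was longer by 5.28%, where 0.934% of tested genes were shorter and 0.782% longer. Which transcripts lie behind the lengths is not given at gene level. The change also touches the levels: on the log2(TPM + 0.1) scale, which divides by effective length, Palld was higher after ISO by 0.19 (adjusted p = 0.021), and Trim55 was at -0.17 (adjusted p = 0.188).

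**Figure D5:**
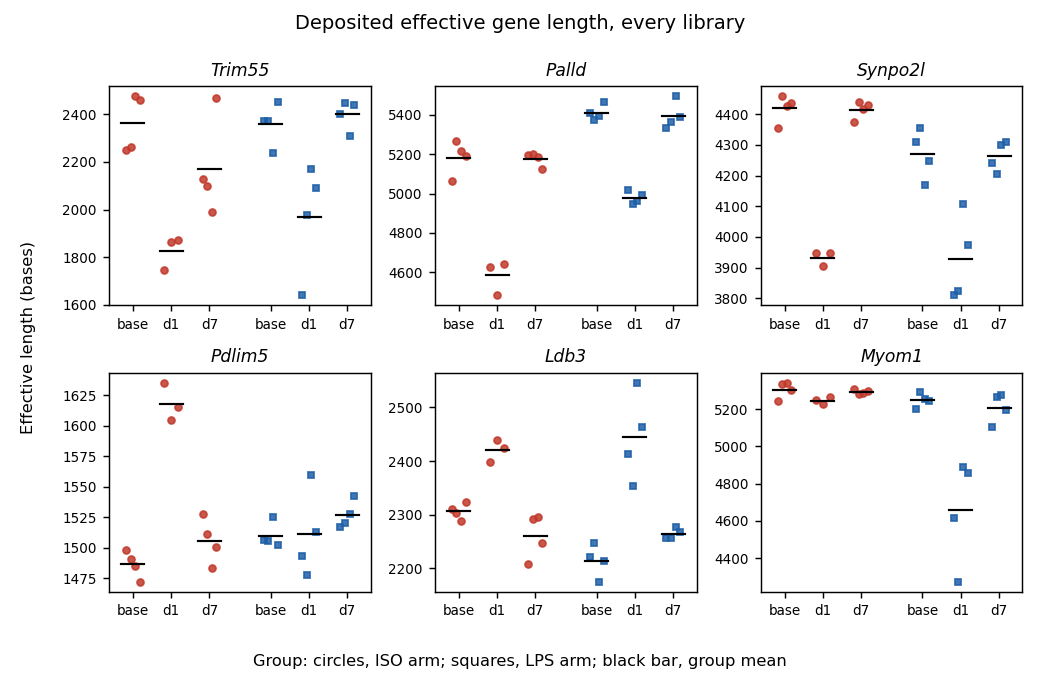
Deposited effective length in bases (linear axes that do not start at 0) of 6 members in every library at baseline, day 1 and day 7 of the ISO arm (red circles) and the LPS arm (blue squares); black bars are group means. Trim55, Palld and Synpo2l are shorter at day 1 in both arms, Pdlim5 is longer at ISO day 1, Ldb3 is longer at LPS day 1 and Myom1 is shorter at LPS day 1.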

How the data were processed

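Gene-level RNA-seq quantifications of 23 mouse heart libraries were used. Per the labels' protocols, poly-A RNA was reverse transcribed with random hexamers; DRAGEN, bcl2fastq, limma, edgeR and mm10 are listed in the submitters' processing notes. Not given in the sources used here: annotation and strand setting. The deposited files hold estimated counts, TPM and effective lengths in bases per gene and library. Of the deposited counts, 9.50% were not whole, and all were rounded. Of 55487 identifiers 55227 matched a GENCODE M21 symbol.

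Counts were filtered (filterByExpr, minimum count 10), scaled by TMM (factors 0.88 to 1.13) and fitted with edgeR 4.0.16 (R 4.3.3) in a quasi-likelihood model with 1 mean per group, over 15732 genes with Benjamini-Hochberg adjustment at 0.05. The common biological coefficient of variation was 11.0%. Standard errors were taken from the log2 fold change and its F statistic. Other runs used limma 3.58.1 and DESeq2 1.42.0 with other scalings, filters, offsets and libraries left out; effective lengths were compared by exact permutation with scipy 1.17.1, a comparison chosen after the values were seen. The pipeline was tested on simulated data. Whether each library of a group is its own mouse is not stated; the tests therefore cover only the spread among these libraries, which may be technical. All 32 members are accounted for. Values per library are given for members called with a change of at least 2-fold at day 1 and for up to 6 members per role group with the smallest adjusted p; named genes of the wider lists are up to 4 per list and direction with the smallest adjusted p and a mean of at least 5 CPM, of which some are not reported here. The members and all gene lists were chosen with earlier results of these data known.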

Additional observations from a re-analysis of the deposited data

Results flagged for a closer look

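In 5 of 160 groups of 4 libraries, 1 library stood far from the others for a member, where chance gives about 5%, that is 1 in 20. Tnnc1 was at 1617 CPM in the first LPS baseline library, above the other 3 at 1399.8 to 1418 CPM. Tpm1 was at 6405 CPM in the first LPS day 7 library, above the others at 5623 to 5640.0 CPM. Pdlim5 was at 772 CPM in the second LPS day 1 library, above 679 to 693 CPM, and at 286 CPM in the fourth LPS day 7 library, below 312 to 316 CPM. Fbxo32 was at 116 CPM in the second LPS baseline library, below 142 to 148 CPM.

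The day 1 responses of 20 members differed between the arms in edgeR's interaction test, given as the ISO log2 change minus the LPS log2 change. Among filament genes these were Actc1 (2.07), Tnnt2 (-0.49), Lmod2 (-0.58) and Mybpc3 (-0.40). Among Z disc genes they were Actn2 (0.74), Ldb3 (0.72), Tcap (-2.77, with untreated groups that differed by 0.90), Nebl (0.40), Synpo2l (-1.72), Smpx (0.81), Pdlim5 (0.38), Des (0.52), Mypn (1.84) and Palld (0.49). Among turnover and assembly genes they were Trim63 (-1.36), Fbxo32 (-2.08), Trim55 (0.43), Alpk3 (0.75), Unc45b (0.55) and Smyd1 (0.47).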

How the results depend on the processing

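In 8 cases a member's value changed sign with a call on at least one side: with log2(TPM + 0.1) and log2(TPM + 1) in limma, Palld at ISO day 1 (0.19 under both), Tnnt2 (0.013 under both) and Actn2 (0.14 under both) at LPS day 7 over day 1; with log2(TPM + 1), Smpx at LPS day 7 (0.17); and with library totals, Myom1 at LPS day 7 over day 1 (0.15). TMM gave -0.02, -0.24, -0.10, -0.04 and -0.03 for these, of which that of Tnnt2 was called. Values called under neither also changed sign, such as Smyd1 at LPS day 7 (0.10 with log2(TPM + 0.1), -0.11 with TMM). Day 1 counts stayed within 1.5 times of those reported in each comparison with baseline. At LPS day 7, library totals gave 2 higher and 2 lower, log2(TPM + 0.1) 3 and 0, log2(TPM + 1) 4 and 0, pooled baselines 0 and 7; the 2 groups alone gave 11 lower, and leaving out LPS day 1 libraries 3 and 4 gave 7 lower, a setting added after seeing the data. Members whose day 1 responses differed with the lower value after ISO numbered 11 with pooled baselines and 12 without LPS day 1 libraries 3 and 4. For the day 7 responses, pooled baselines gave 4 higher, DESeq2 1 higher and 1 lower, and library totals, no filter, both TPM scales and the groups alone gave 1 lower each. Between baselines, both TPM scales gave 2 higher and 1 lower, the groups alone 2 and 2, and leaving out LPS day 1 libraries 1 and 2 gave 2 higher.

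Leaving out 1 library at a time gave 7 to 8 higher and 14 to 18 lower at ISO day 1, 6 to 7 and 17 to 19 at LPS day 1, 0 and 0 at ISO day 7, 1 and 4 to 5 at LPS day 7, 12 to 17 and 8 to 9 for ISO day 7 over day 1, 14 to 17 and 7 to 10 for LPS day 7 over day 1, 12 to 14 and 7 to 10 for the day 1 responses, 0 to 2 and 0 to 1 for the day 7 responses (2 higher without the third ISO day 7 library; 1 lower without the second or the third ISO day 1 library or the first ISO day 7 library), and 1 and 0 between baselines.

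With the replicate number as a block, 8 members were higher and 17 lower at ISO day 1, 6 and 19 at LPS day 1, 0 and 0 at ISO day 7, 1 and 4 at LPS day 7, 15 and 8 for day 7 over day 1 in each arm, 13 and 7 for the day 1 responses, 0 and 0 for the day 7 responses, and 1 and 0 between baselines. Deviations of libraries with the same number correlated at -0.12 to 0.16 over 55 pairs, with 2 above 0.1. Those 2 were both between ISO day 7 and LPS day 7, at 0.12 and 0.16. Whether same-numbered libraries share a batch or a pairing cannot be told from these values.

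Over all genes, library totals moved the LPS day 7 split to 2421 higher and 90 lower, where TMM gave 938 higher among 1431 called, and LPS day 7 over day 1 to 6776 and 3584, where TMM gave 5336 and 5108; upper-quartile scaling moved ISO day 1 to 4209 and 6133 (median -0.14), where TMM gave 5171 and 5161. The cause of these changes was not tested.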

Other observations

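Several other actin genes had higher levels after isoproterenol, while cardiac actin was not called. Actb averaged 986 ± 91.9 CPM at ISO day 1 (SD, n = 3) and 449 ± 44.5 CPM at ISO baseline (SD, n = 4). Actg1 averaged 710.3 ± 85.5 CPM at ISO day 1 and 252 ± 28 CPM at ISO baseline, and smooth muscle actin Acta2 465 ± 143 CPM at ISO day 1 and 155 ± 32.3 CPM at ISO baseline. No library of 1 group lay within the range of the other for these 3 genes, while for Actc1 the groups overlapped. Of all tested genes 32.9% were called higher at ISO day 1. Actg2 overlapped, at 0.681 to 1.04 CPM at ISO day 1, against 0.778 to 1.48 CPM at ISO baseline. Endothelial markers summed to 1594 to 1773 CPM at ISO day 1, against 915 to 998 CPM at ISO baseline. Of these 8 markers 4 were higher and 1 lower, while 32.9% and 32.8% of all tested genes were. The part of these markers in the actin values was not tested. At LPS day 1 Acta2 averaged 148 ± 40.3 CPM, against 147 ± 25 CPM at LPS baseline (SD, n = 4 each), with overlapping groups.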
